A study of Mus musculus with 6 samples.

Results

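The integrated stress response is carried by a small set of transcription factors and by the genes they switch on to adjust or limit the response. Here 10 such genes were followed in mouse hearts: the transcription factors Atf4, Atf5, Ddit3, Cebpg, Cebpb and Atf3, and the feedback and effector genes Trib3, Chac1, Nupr1 and Sesn2. They were taken by gene symbol from a deposited expression table of 54532 genes. The symbols matched 11 rows of it, because Ddit3 has a second, very short entry of 105 exonic bases that was at 0 in every heart. All 10 genes passed the filter on low values, a 6-heart mean no lower than 0.5 FPKM, as did 12944 genes in all. FPKM is a count of read fragments divided by gene length and by a size set for each library, so levels can be set against each other per length.

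When cells meet amino acid shortage, misfolded protein, heme loss or mitochondrial damage, kinases phosphorylate the translation factor eIF2. General translation then falls, while mRNAs with short upstream reading frames, those of ATF4, ATF5 and CHOP (the protein of Ddit3) among them, are translated better. ATF4 and its partners raise genes of amino acid synthesis and uptake, aminoacyl-tRNA charging and one-carbon metabolism, and they also raise factors that feed back on the response. Mitochondrial disease of heart and skeletal muscle is one setting in which the program is known.

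The comparison was of 2 groups of 3 hearts. Both carried Mrps5 fl/fl, an allele of a protein of the small mitochondrial ribosomal subunit flanked by loxP sites. The cKO hearts also carried MCM, a tamoxifen-inducible Cre (MerCreMer) driven by the αMHC promoter in cardiomyocytes, and the Ctrl hearts did not. Both groups received tamoxifen at 45 mg per kg per day for 5 days at 8 weeks of age, and per the labels tissue was taken 12 weeks after it. The methods name ventricular tissue of littermates and give an age of 12 weeks, which differs from the labels, and the labels give no strain background. Because no group analysed here carried MCM without the floxed alleles, effects of the Cre and of Mrps5 loss cannot be told apart.

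RNA came from unsorted heart tissue, so only part of it was from cells in which Cre was active. Counted reads ran from 15989322 in cKO 1 to 24875499 in Ctrl 3. Mrps5, the targeted gene, stood at 5.20, 6.45 and 6.34 FPKM in the Ctrl hearts and at 1.12, 1.23 and 1.31 FPKM in the cKO hearts (log2 difference -1.65, SE 0.0944, limma adjusted p = 0.000202). Markers of cardiomyocytes were abundant in every heart (8 genes, summed level 12410 to 14620 FPKM in Ctrl and 7854 to 11450 FPKM in cKO). The summed atrial markers (5 genes) ran from 129 to 2095 FPKM over the Ctrl hearts and from 577 to 1677 FPKM over the cKO hearts. In 5 hearts the mean of 4 Y-linked genes was 7.61 to 8.79 FPKM, and in cKO 2 it was 0, with Xist at 10.7 FPKM, although the study describes its animals as male. Values of the 10 genes and counts for the lists without cKO 2 are therefore given with the first results.

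The DNA just upstream of these genes is shown first, because ATF4 reaches many of its targets through one short element. The core of the C/EBP-ATF response element, bound by dimers of ATF4 with C/EBP proteins, was searched as TGATGNAA on both strands of windows from 250 bases before to 50 bases after each RefSeq start (GRCm38.p6). A match occurred in 4 of the 10 genes, Atf3, Trib3, Chac1 and Nupr1, and 3.97% of the 32851 windows of all genes held one (4.51% of 27025 genes). The stretches below run 5′ to 3′ on the strand of the gene, and the capitals mark the match, which in all 4 reads as the reverse complement of the searched letters.
Atf3, chr1:191183395-191183484, minus strand: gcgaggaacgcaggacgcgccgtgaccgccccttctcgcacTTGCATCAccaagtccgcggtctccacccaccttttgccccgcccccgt
Nupr1, chr7:126625532-126625621, minus strand: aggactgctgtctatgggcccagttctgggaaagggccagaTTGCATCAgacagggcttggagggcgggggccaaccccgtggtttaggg
Chac1, chr2:119351008-119351097, plus strand: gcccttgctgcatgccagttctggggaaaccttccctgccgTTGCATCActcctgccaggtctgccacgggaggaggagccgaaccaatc
Trib3, chr2:152344028-152344057, minus strand: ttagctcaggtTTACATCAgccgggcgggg

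Atf3, Nupr1 and Chac1 held the same 8 letters, TTGCATCA, starting 110, 110 and 193 bases before the RefSeq start. In Trib3 the letters were TTACATCA, and they began 15 bases after a RefSeq start. That start lies beyond the upstream end of the gene as placed in the deposited table, and so does the match. Windows of Atf4, Atf5, Ddit3, Cebpb, Cebpg and Sesn2 held no match. Neither the cyclic AMP response element TGACGTCA (1.79% of all windows) nor the C/EBP site TTGCNNAA (10.8% of all windows), both searched on both strands, occurred in the window of any of the 10 genes. A match is a run of letters and not a measured binding site.

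Of the 10 genes, 7 were higher in the cKO hearts past an adjusted p of 0.05, namely Atf3, Atf4, Atf5, Cebpg, Trib3, Nupr1 and Sesn2. None was lower by limma, and none was lower at an unadjusted p under 0.05 or by voom. Ddit3, Chac1 and Cebpb did not pass. The test was limma on log2(FPKM + 1), two-sided and adjusted over all 12944 genes, and every log2 difference below is cKO minus Ctrl on that scale, which understates the change of low genes. Over all genes tested, 16.3% were higher and 17.0% were lower by the same test (2110 and 2205 genes). That near balance depended on scaling. Dividing each heart by its summed FPKM without genes of the mitochondrial DNA gave 20.5% higher (2649) and 12.5% lower (1620). Under that scaling too, 7 of the 10 genes were higher. A higher call together with a difference of at least 2-fold on that scale was made for 5 of the 10 genes and for 2.13% of all genes. In 8 of the 10 all 3 cKO values lay above all 3 Ctrl values, as they did in 24.8% of all genes. The number of the 10 genes called higher was 9 without cKO 1 and 4 without Ctrl 2. The median log2 difference was 1.38 over the 10 genes and -0.02 over all genes.

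Without cKO 2 the count was again 7, with Ddit3 called (log2 difference 0.95, adjusted p = 0.0489) and Sesn2 not (1.10, adjusted p = 0.0627). The log2 differences of the other genes called were then 1.11 for Atf3, 1.18 for Atf4, 2.89 for Atf5, 0.55 for Cebpg, 2.42 for Trib3 and 0.78 for Nupr1. Chac1 (1.02, adjusted p = 0.302) and Cebpb (0.25, adjusted p = 0.232) again did not pass. In the gene lists described further on, the number higher without cKO 2 was 30 for ATF4 and CHOP targets, 8 for eIF2 control, 7 for other bZIP factors, 0 for paralogs, 6 for endoplasmic reticulum chaperones, 7 for mitochondrial chaperones and proteases and 4 for immediate-early genes, each within 1 of the number with all hearts.

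**Figure D1:**
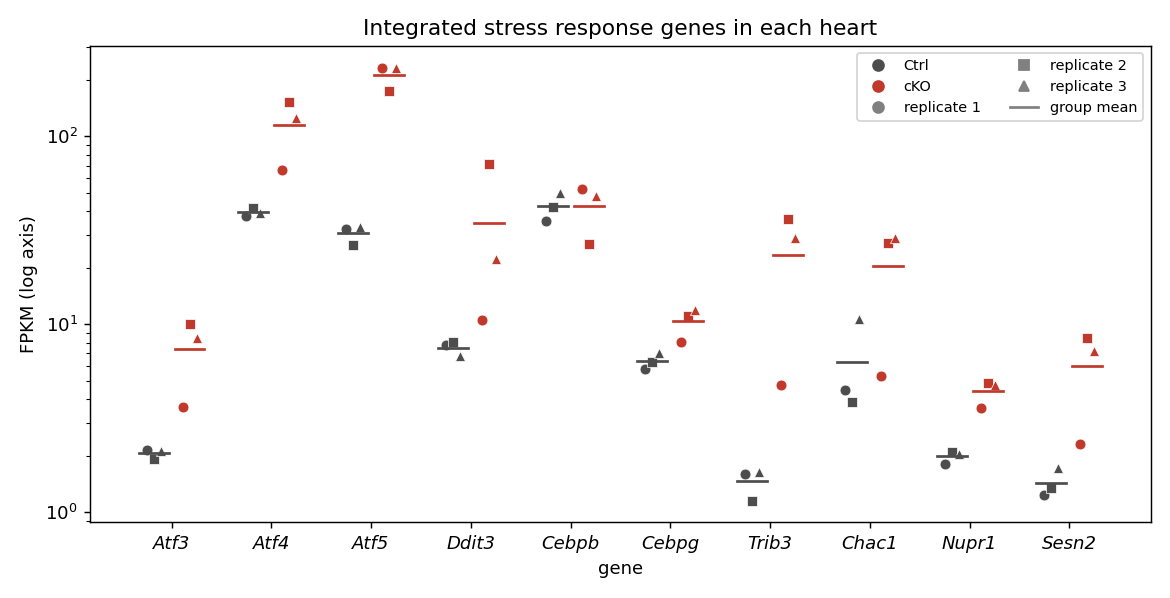
FPKM (log axis) of the 10 genes in each heart, Ctrl in grey and cKO in red, with circles, squares and triangles for replicates 1, 2 and 3 and a line at each group mean (n = 3). The groups overlap in Cebpb and Chac1 and are separate in the other genes, and the red circle (cKO 1) lies lowest of the cKO hearts in 8 of the 10.

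Atf4 encodes the factor at the centre of the response. Its level was 37.9, 41.8 and 39.3 FPKM in the Ctrl hearts and 66.2, 153 and 125 FPKM in the cKO hearts. The Ctrl hearts lay close together, and every cKO heart lay above them, cKO 1 the least. The mean went from 39.7 ± 1.95 to 115 ± 44.3 FPKM (SD, n = 3), a log2 difference of 1.43 (SE 0.282, adjusted p = 0.00998). The gene lies at chr15:80255184-80257541 on the plus strand and shares no exonic bases with another gene. The table holds RNA levels, and neither ATF4 protein nor eIF2 phosphorylation was measured in it.

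Atf5 encodes a close relative of ATF4 that is linked to the mitochondrial unfolded protein response. It stood at 32.3, 26.5 and 32.8 FPKM in the Ctrl hearts and at 231, 175 and 232 FPKM in the cKO hearts. All 3 cKO hearts were far above the Ctrl hearts, and here cKO 1 was level with cKO 3 while cKO 2 was lowest. The log2 difference of 2.76 (SE 0.140, adjusted p = 0.000165) had the smallest SE relative to its size among the 10 genes. At chr7:44812256-44816658 (minus strand) Atf5 shares 82 of its 1993 exonic bases with Nup62 and Il4i1 on the opposite strand, and Nup62 was at 8.14 to 8.39 FPKM in Ctrl and 13.0 to 14.9 FPKM in cKO.

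Ddit3 encodes CHOP, which ATF4 induces and which is known for its part in stress-induced cell death. Its levels were 7.75, 8.06 and 6.78 FPKM in the Ctrl hearts and 10.5, 71.0 and 22.3 FPKM in the cKO hearts. The groups did not overlap, yet the cKO hearts ranged from 1.40 to 9.43 times the Ctrl mean. With a coefficient of variation of 92.6% over the cKO hearts, against 8.83% over the Ctrl hearts, the log2 difference of 1.66 had a 95% interval of 0.26 to 3.05 and did not pass (adjusted p = 0.0699). It passed without cKO 1 (2.27, adjusted p = 0.0184) and without cKO 2 (0.95, adjusted p = 0.0489), and not with all 6 hearts. At chr10:127290774-127296288 (plus strand) Ddit3 shares 68 of 1713 exonic bases with Mars on the opposite strand, itself at 14.5 to 16.2 FPKM in Ctrl and 33.5 to 40.6 FPKM in cKO. On the same strand it also holds all 105 exonic bases of the second Ddit3 entry. How reads in these shared bases were counted was not given in the sources used here.

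C/EBPγ, the product of Cebpg, pairs with ATF4 at many of its sites. Cebpg measured 5.78, 6.33 and 7.08 FPKM in the Ctrl hearts and at 8.07, 11.1 and 11.9 FPKM in the cKO hearts. The groups were separate, with a log2 difference of 0.61 (SE 0.145, adjusted p = 0.0190), which is under 2-fold. The call was lost without Ctrl 1 (adjusted p = 0.0630), without Ctrl 2 (0.0596) or without cKO 3 (0.0538). Cebpg lies at chr7:35046422-35056573 on the minus strand.

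Cebpb encodes C/EBPβ, a partner of ATF4 and CHOP that also acts in inflammation and metabolism. It measured 35.4, 42.0 and 49.9 FPKM in the Ctrl hearts and at 52.4, 26.7 and 48.2 FPKM in the cKO hearts, so the highest and the lowest of the 6 values were both from cKO hearts. The log2 difference was -0.04 with a 95% interval of -0.65 to 0.57 (adjusted p = 0.915), and its sign turned under 3 alternatives. Summed macrophage markers (8 genes) were lowest in cKO 2 (242 FPKM) as Cebpb was. The sums ran from 305 to 417 FPKM over the Ctrl hearts and up to 359 FPKM in cKO 1. Most of each sum was Lyz2, C1qa and C1qb. These genes, Cd14 and Csf1r were lowest in cKO 2. The others went the other way: Cd68 was highest in cKO 2 of all hearts (9.17 FPKM), and Adgre1 and Ptprc were highest there of the cKO hearts. None of these markers was at 0, and their part in the Cebpb values was not tested. Cebpb (chr2:167688915-167690418, plus strand) shares 312 of its 1504 exonic bases with Tmem189 on the opposite strand, which was at 7.67 to 7.96 FPKM in Ctrl and 8.93 to 16.6 FPKM in cKO, the largest such share among the 10, and whether counting used the strand was not given in the sources used here.

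Atf3 encodes a stress-induced factor that can repress or activate and that lies downstream of ATF4. It was low in the Ctrl hearts, at 2.14, 1.92 and 2.13 FPKM, and stood at 3.65, 10.1 and 8.42 FPKM in the cKO hearts. Every cKO value was above every Ctrl value, with cKO 1 at 1.77 and cKO 2 at 4.87 times the Ctrl mean. The log2 difference was 1.36 (SE 0.299, adjusted p = 0.0146). Atf3 lies at chr1:191170296-191218039 on the minus strand.

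**Figure D2:**
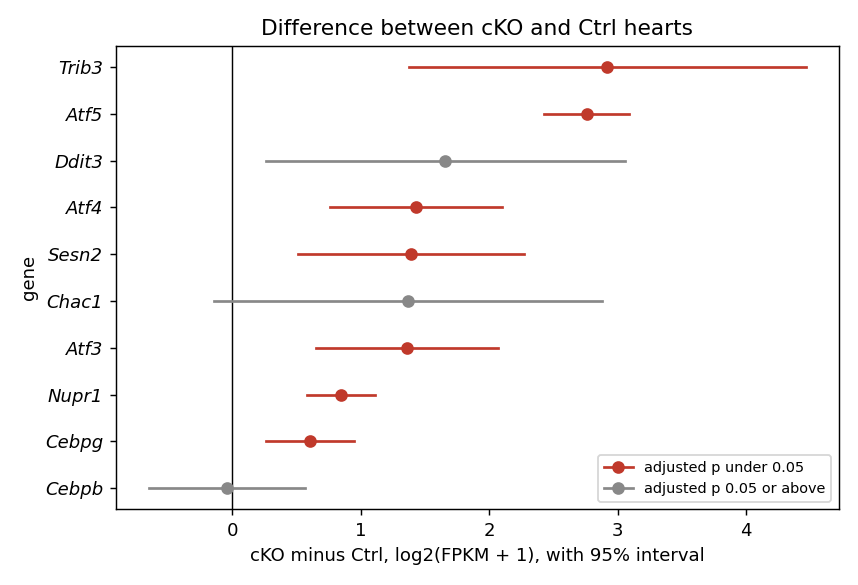
Difference between cKO and Ctrl hearts in log2(FPKM + 1) for each of the 10 genes (point) with its 95% interval (bar), in red where the adjusted p was under 0.05. Atf5 combines a large difference (2.76) with a narrow interval, Trib3 has a value of 2.92 with a wide one, and the intervals of Chac1 and Cebpb cross 0.

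Among the feedback genes, Trib3 encodes a pseudokinase that binds ATF4 and CHOP and dampens them. Its levels were 1.60, 1.15 and 1.63 FPKM in the Ctrl hearts and 4.75, 36.2 and 28.8 FPKM in the cKO hearts. The groups were far apart, and the cKO hearts themselves differed by more than any Ctrl hearts did. The log2 difference was 2.92 (SE 0.652, adjusted p = 0.0153), the largest of the 10 genes with all hearts but below that of Atf5 without cKO 2 (2.42 against 2.89) and without cKO 3 (2.58 against 2.69). Leaving out Ctrl 2 ended the call (adjusted p = 0.0521). Trib3 lies at chr2:152337422-152344032 on the minus strand.

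Chac1 encodes a γ-glutamyl cyclotransferase that breaks down glutathione and is induced through ATF4. It stood at 4.49, 3.85 and 10.7 FPKM in the Ctrl hearts and at 5.31, 27.1 and 29.0 FPKM in the cKO hearts. The groups overlapped, because Ctrl 3 was above cKO 1, while cKO 2 and cKO 3 were above all Ctrl hearts. The log2 difference of 1.37 had a 95% interval of -0.14 to 2.87 (adjusted p = 0.142), and without cKO 1 it was 2.10 (adjusted p = 0.0141). Summed neutrophil markers (5 genes) were highest in the same hearts that overlapped. The sums were 40.4 FPKM in Ctrl 3 and 25.9 FPKM in cKO 1 against 3.44 to 8.39 FPKM in the other hearts. Most of each sum was S100a8, S100a9 and Retnlg. Csf3r was at 0.23 to 0.39 FPKM in Ctrl and 0.33 to 0.44 FPKM in cKO. The most specific of these markers, Ly6g, was at 0.06 FPKM in Ctrl 1, 0.04 FPKM in Ctrl 3 and 0.19 FPKM in cKO 1. It was at 0 in Ctrl 2, cKO 2 and cKO 3. Chac1 was highest of the Ctrl hearts in Ctrl 3 and lowest of the cKO hearts in cKO 1. The part of the neutrophil markers in the Chac1 values was not tested. Chac1 lies at chr2:119351229-119354381 on the plus strand.

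Nupr1 encodes a small stress-induced nuclear protein that works with ATF4. It measured 1.82, 2.10 and 2.04 FPKM in the Ctrl hearts and at 3.60, 4.87 and 4.73 FPKM in the cKO hearts. Both groups were tight and separate, with a log2 difference of 0.85 (SE 0.111, adjusted p = 0.00275). Nupr1 lies at chr7:126623249-126630861 on the minus strand.

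Sesn2 encodes sestrin 2, a leucine sensor that restrains the growth kinase complex mTORC1. Its levels were 1.24, 1.34 and 1.73 FPKM in the Ctrl hearts and 2.31, 8.47 and 7.20 FPKM in the cKO hearts. The groups were separate, and cKO 1 was much closer to the Ctrl hearts than cKO 2 and cKO 3 were. The log2 difference was 1.39 (SE 0.371, adjusted p = 0.0282). It missed the threshold when any one heart but cKO 1 was left out (adjusted p 0.0627 to 0.0812). Sesn2 lies at chr4:132492032-132510501 on the minus strand.

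Set in order of mean level per length, the Ctrl hearts had Cebpb (42.4 FPKM), Atf4 (39.7 FPKM) and Atf5 (30.5 FPKM) well above the rest. Ddit3 (7.53 FPKM), Cebpg (6.39 FPKM) and Chac1 (6.33 FPKM) followed, and Atf3, Nupr1, Trib3 and Sesn2 lay between 1.44 and 2.06 FPKM. Neighbours overlapped in their ranges over hearts for Cebpb with Atf4, for Ddit3 with Cebpg, for Cebpg with Chac1, for Atf3 with Nupr1 and for Trib3 with Sesn2. In the cKO hearts the order was Atf5 (213 FPKM), Atf4 (115 FPKM) and Cebpb (42.5 FPKM), and the ranges of Atf5 and Atf4, and of Atf4 and Cebpb, did not overlap. From Cebpb down through Ddit3 (34.6 FPKM), Trib3 (23.3 FPKM), Chac1 (20.5 FPKM), Cebpg (10.4 FPKM), Atf3 (7.38 FPKM), Sesn2 (5.99 FPKM) and Nupr1 (4.40 FPKM) each gene's range overlapped that of the next.

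The cKO hearts did not hold these genes at one level. In 8 of the 10, the exceptions being Atf5 and Cebpb, cKO 1 was the lowest of the 3 cKO hearts, and cKO 2 was the highest in 6. The heart cKO 2 was also the one with Xist at 10.7 FPKM and Y-linked genes at 0, and the part of this was not tested. Relative to the mean of cKO 2 and cKO 3, cKO 1 reached 14.6% for Trib3, 18.9% for Chac1, 22.6% for Ddit3, 29.5% for Sesn2, 39.5% for Atf3 and 47.6% for Atf4, and 70.1% for Cebpg and 74.9% for Nupr1. For Atf5 it was 113%. The median coefficient of variation of the 10 genes was 41.9% over the cKO hearts and 10.9% over the Ctrl hearts.

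A list of 37 further genes that ATF4 or CHOP is known to induce was followed across the same hearts. Of its 36 genes tested, 29 were higher and 1 was lower (16.3% and 17.0% over all genes), with a median log2 difference of 1.46. Over all 36 tested, cKO 1 was the lowest cKO heart in 8 (22.2%), as in 32.6% of all genes tested, and its median level was 112% of the mean of cKO 2 and cKO 3, against 43.6% over the 10 stress response genes. Among genes called higher, cKO 1 was lowest in 6 of the 7 stress response genes, in 5 of the 29 targets (17.2%) and in 14.1% of all such genes. The calls themselves favour genes that are even across the cKO hearts. The 5 targets were the growth factor gene Gdf15, the transport genes Slc3a2 and Slc7a1, the tRNA synthetase gene Aars and the tRNA exporter gene Xpot. These counts describe 3 hearts, and no test was made of a difference between single hearts.

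**Figure D3:**
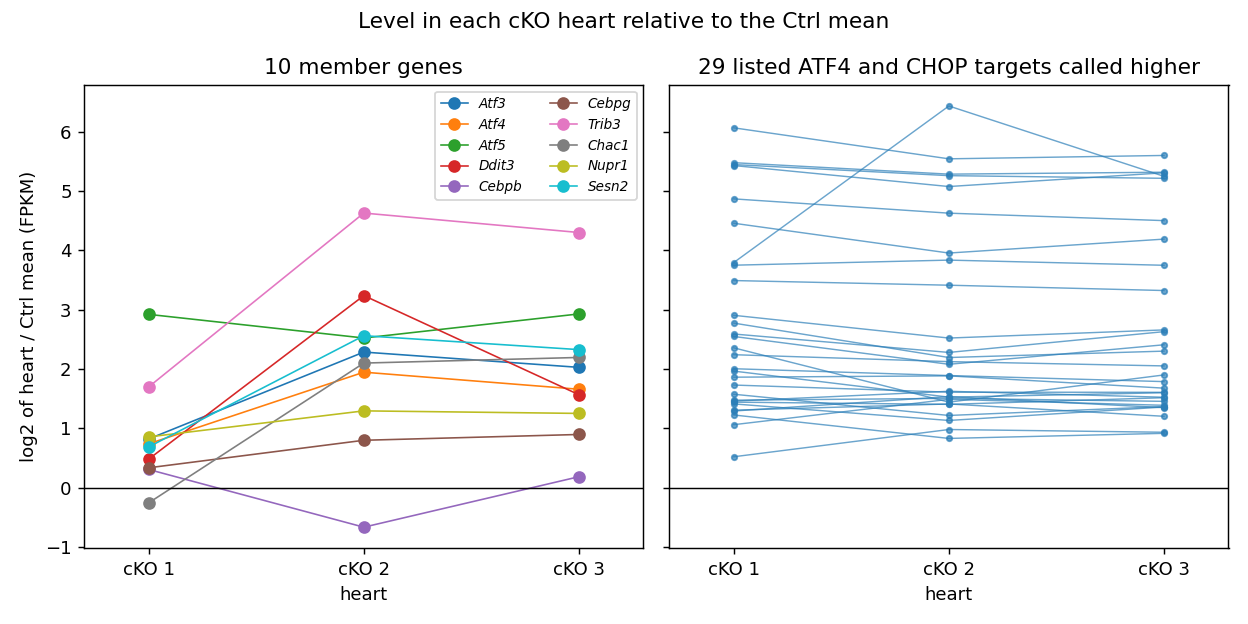
Level in each cKO heart relative to the Ctrl mean (log2 of the FPKM ratio) for the 10 genes, left, and for the 29 listed ATF4 and CHOP targets called higher, right, with lines joining the values of one gene and no order implied among hearts. On the left most lines lie lowest at cKO 1, Atf5 and Cebpb excepted, whereas on the right the values are mostly level, Gdf15 being the steepest line between cKO 1 and cKO 2.

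Among the stress hormones of the same list, Gdf15 was at 20.8, 129 and 56.9 FPKM in the cKO hearts, with 0.75 to 2.41 FPKM in the Ctrl hearts (log2 difference 4.51, SE 0.607, adjusted p = 0.00290). Fgf21 was at 0.19, 4.41 and 2.55 FPKM in the cKO hearts and at 0.04 to 0.11 FPKM in the Ctrl hearts (adjusted p = 0.0730). Both were lowest in cKO 1, as Ddit3 and Trib3 were. The library of cKO 1 was also the shallowest, its summed cardiomyocyte markers were the lowest of all hearts, and its summed atrial markers were the lowest of the cKO hearts. The part of these in the lower values was not tested. In tissue RNA, fewer cells of a type and less RNA per cell cannot be told apart.

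Of the listed targets, Mthfd2, Asns, Gdf15 and Phgdh had the largest differences. Mthfd2, a mitochondrial folate enzyme, went from 1.43 to 3.40 FPKM in Ctrl to 90.3 to 103 FPKM in cKO (log2 difference 4.90, SE 0.202, adjusted p = 8.79e-05). Asns, which makes asparagine, had a log2 difference of 4.68 (adjusted p = 8.73e-05), and Phgdh, the first enzyme of serine synthesis, one of 4.16 (adjusted p = 1.35e-05). One target was lower, the lipoprotein receptor gene Vldlr, at 41.9 to 51.0 FPKM in Ctrl and 10.7 to 19.8 FPKM in cKO (log2 difference -1.71, adjusted p = 0.00269), and 6 of the 36 were not called: Fgf21, Cth, Gpt2, Tnfrsf10b, Stc2 and Ddit4. The element TGATGNAA was found in the windows of 10 of the 26 target genes matched in RefSeq, Asns, Aars, Fgf21 and Vldlr among them.

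The list of eIF2 control held the eIF2 kinases and phosphatase subunits, proteins that act on the kinases, and the subunits of eIF2 and of its exchange factor eIF2B. Of 18 genes tested (19 listed), 8 were higher and 2 lower (16.3% and 17.0% over all genes), with a median log2 difference of 0.18. Without Ctrl 1, without Ctrl 2 or without Ctrl 3 the number higher was 5. None of the 4 eIF2 kinase genes passed in limma, at an unadjusted p under 0.05 (0 of 4) or in voom: Eif2ak1 (HRI) differed by 0.09, Eif2ak2 (PKR) by 0.28, Eif2ak3 (PERK) by 0.05 and Eif2ak4 (GCN2) by -0.08 in log2. Ppp1r15a (GADD34) encodes the feedback subunit of the phosphatase that removes the phosphate from eIF2. It was at 11.4, 9.22 and 13.1 FPKM in Ctrl and 16.1, 23.3 and 18.8 FPKM in cKO (log2 difference 0.74, SE 0.164, adjusted p = 0.0152). Its constitutive counterpart Ppp1r15b did not pass (0.14, adjusted p = 0.438). The other 7 higher genes were subunits. The eIF2 subunit genes Eif2s2 (1.21), Eif2s1 (0.66) and Eif2s3x (0.64) were higher. So were the eIF2B subunit genes Eif2b2, Eif2b3, Eif2b4 and Eif2b5 (0.21 to 0.47). Eif2s3x was at 15.3, 18.1 and 15.7 FPKM in Ctrl and 22.3, 35.3 and 22.0 FPKM in cKO. Its highest value was in cKO 2, the heart with Xist expressed and Y-linked genes at 0, and the part of sex in it was not tested.

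Dele1 and Oma1 were the lower ones in this list. Dele1, whose product leaves stressed mitochondria and activates HRI, measured 50.2, 61.9 and 52.5 FPKM in the Ctrl hearts and 25.1, 30.8 and 33.4 FPKM in the cKO hearts. The groups were clearly separate, with a log2 difference of -0.86 (SE 0.128, adjusted p = 0.00376). Oma1, the protease that cuts DELE1, had a log2 difference of -0.25 that passed narrowly (adjusted p = 0.0499). Dele1 was called under all 14 alternatives and Oma1 under 2 of 14, and voom gave Oma1 an adjusted p of 0.0551. These are RNA levels and say nothing of the cleavage of DELE1.

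Of 5 paralogs of the feedback genes tested by limma, none was higher and 2 were lower, with a median log2 difference of -0.29. The number higher was also 0 at an unadjusted p under 0.05 and by voom. Over all genes, limma called 16.3% higher and 17.0% lower. Sesn1, the sestrin gene that p53 and FOXO factors are known to induce, was at 30.5, 47.0 and 50.2 FPKM in Ctrl and 23.5, 15.2 and 26.4 FPKM in cKO (log2 difference -0.95, SE 0.250, adjusted p = 0.0270), so it lay above Sesn2 in every heart of both groups. Trib1 was lower (-0.29, adjusted p = 0.0303). Trib2 (-0.08), Sesn3 (0.08) and Chac2 (-0.45, adjusted p = 0.0665) did not pass.

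Other bZIP factors, the family to which ATF4, CHOP and the C/EBP proteins belong, had 6 higher and 7 lower of 35 tested, shares near the 16.3% and 17.0% of all genes, with a median of -0.02. With scaling without mtDNA-encoded genes 9 were higher. The number higher was 2 without Ctrl 2 and 2 without Ctrl 3. The largest differences were those of the clock output factors Dbp (-1.89), Tef (-1.08) and Hlf (-1.01), all lower, and of Fos (0.94), which was higher. Immediate-early genes, which rise quickly when tissue is handled and to which Atf3 is often added, had 4 higher and 1 lower of 14 tested. The higher ones were Egr1, Egr2, Egr3 and Fos, and the lower one was Dusp1. Without Ctrl 2, limma called 0 of the list higher, without Ctrl 3 it called 1 and without cKO 3 it called 2. Their part in the Atf3 values was not tested.

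Chaperone genes of 2 compartments were set beside these, by the test that called 16.3% of all genes higher and 17.0% lower. For the endoplasmic reticulum 5 were higher and 1 was lower of 17 tested, with a median of 0.21, and 2 were higher without Ctrl 1 or without Ctrl 2. Sdf2l1 (0.74), Creld2 (0.63) and Manf (0.58) were the highest, whereas Hspa5, the main chaperone of that compartment, differed by -0.11 (adjusted p = 0.584) and Herpud1, of its degradation machinery, was lower by a log2 difference of -1.45 (adjusted p = 0.00575). For mitochondria 7 were higher and 1 was lower of 13 tested, with a median of 0.49. The matrix protease gene Lonp1 (1.85, adjusted p = 0.000415) and the chaperone genes Hspe1, Hspd1 and Hspa9 (0.92 to 0.96) led, and the protease gene Spg7 was lower (-0.39, adjusted p = 0.0109). In none of the 7 higher ones was cKO 1 the lowest cKO heart, and it was so in only 14.1% of all genes called higher.

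**Figure D4:**
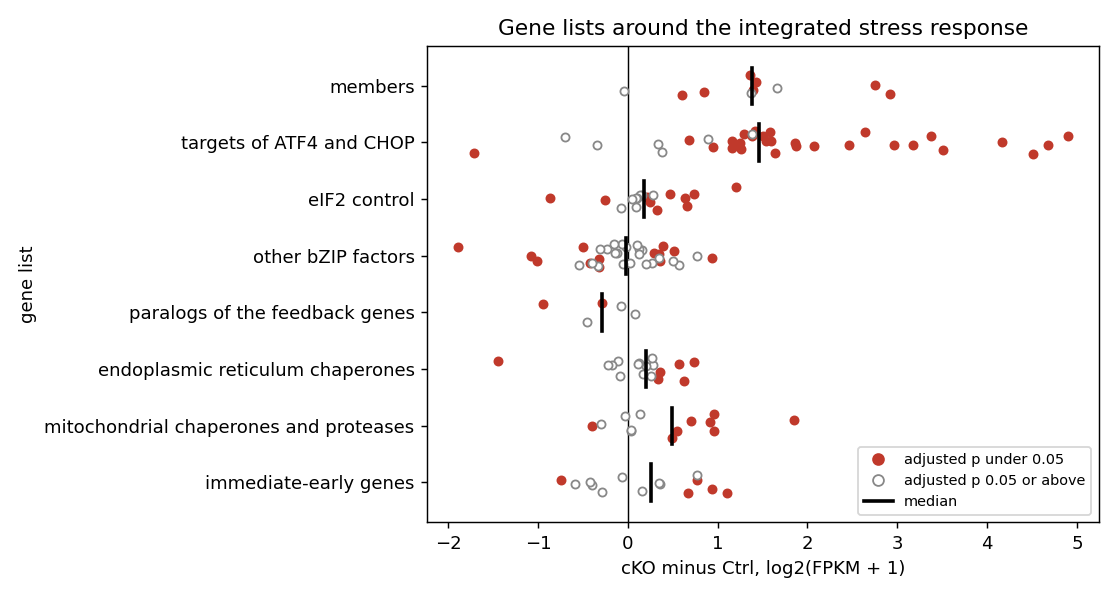
Difference between cKO and Ctrl in log2(FPKM + 1) for every tested gene of the 10-gene set and of 7 further lists, in red where the adjusted p was under 0.05, with a black bar at each list's median. The medians are 1.38 for the 10 genes and 1.46 for the ATF4 and CHOP targets, and lie between -0.29 and 0.49 for the other lists.

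Markers of other cell types were given the same test, which called 16.3% of all genes higher and 17.0% lower. Fibroblast markers had 3 higher, the collagen genes Col3a1 (1.57) and Col1a1 (0.82) and Postn (0.82), and 1 lower, Dcn, of 8 tested, and their summed level ran from 163 to 189 FPKM in Ctrl and from 163 to 195 FPKM in cKO. Endothelial markers had 3 lower of 5, macrophage markers 1 lower of 7, and for neutrophil (3 tested), erythroid (5) and atrial (5) markers limma, its unadjusted p under 0.05 and voom all gave 0 either way. Of 8 cardiomyocyte markers 4 were lower (Tnnt2, Myl2, Tnni3 and Ryr2). The part of these in the levels of the 10 genes was not tested.

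The genes whose pattern over the 6 hearts was most like the mean of the 10 were found by the root mean square difference of log2(FPKM + 1), each centred on its Ctrl mean. They were Lhfpl2 (0.13), Slc1a4 (0.17) and Slc3a2 (0.26). Lhfpl2 was at 0.26 to 0.36 FPKM in the Ctrl hearts and at 1.12, 3.86 and 2.56 FPKM in the cKO hearts. Slc1a4, a transporter of alanine, serine and cysteine, was at 0.29 to 0.66 FPKM in the Ctrl hearts and at 1.43, 5.19 and 3.66 FPKM in the cKO hearts. Slc3a2, the heavy chain shared by several amino acid transporters, was at 11.4 to 15.0 FPKM in the Ctrl hearts and at 27.6, 37.2 and 34.7 FPKM in the cKO hearts. They were chosen for this pattern, so the order of their values over the hearts is no finding.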

How the data were processed

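The authors prepared poly-A selected paired-end libraries (NEBNext Ultra) from RNA of heart tissue. Per the labels, reads were aligned with HISAT2 2.0.5 and counted per gene with featureCounts 1.5.0-p3, and the authors deposited FPKM values together with each gene's length, an other, gene-level value. The strand setting, and how reads that fall in several genes were treated, were not given in the sources used here. The labels name the build mm9, but of the 54495 gene identifiers shared with GENCODE M21 every one was placed on the same chromosome and 53585 had the same start and end, so the table's coordinates, used here, are those of GRCm38. FPKM times length gave whole reads for 100% of the values (tolerance 0.01 read), and these recovered reads gave the depth. Y-linked genes, Xist and the second Ddit3 entry entered no comparison of their own.

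Groups came from the sample titles. Genes whose mean reached 0.5 FPKM were tested by limma 3.58.1 in R 4.3.3 on log2(FPKM + 1) (eBayes with trend, no covariates, two-sided, Benjamini-Hochberg over all genes, threshold 0.05), after a check on simulated data. An exact permutation test of 3 against 3 hearts cannot go below 0.1 and was not used. The labels do not say more of the replicates than that they are separate samples, and the study calls them biological repeats. The p-values set the difference between groups against the spread between these samples, as moderated by eBayes. Reads were counted without molecular identifiers. Alternatives were another pseudocount (0.1), no filter, a minimum of 1 FPKM, 2 other scalings, eBayes without trend, voom on the recovered reads, the replicate number as a block, and leaving out each heart. The same-numbered hearts deviated together with r = -0.06, 0.17 and -0.01, so the numbers were not taken as pairs.

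The 10 genes and all gene and marker lists were chosen with earlier results of these data known. By rule the text names the 10 genes, Mrps5, up to 4 called genes of each list with the largest differences, any eIF2 control or paralog gene a sentence needs, and the 3 most alike genes. Vldlr and the other targets beyond the 4 largest, Hspa5, Spg7, Egr2 and single markers were named after their values were seen, and overlapping neighbours for their position. Promoter windows are from RefSeq (GRCm38.p6), matched by symbol for all 10 genes and 26 of 37 targets.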

Additional observations from a re-analysis of the deposited data

How the results depend on the processing

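Atf3, Atf4, Atf5, Nupr1 and Mrps5 kept their direction and their call under all 14 alternatives run for each. Atf3 held narrowly, with an adjusted p of up to 0.0499 (without Ctrl 2). The highest adjusted p was 0.0365 for Atf4, 0.0134 for Nupr1, 0.00280 for Mrps5 and 0.00195 for Atf5. Trib3 did so under 13, Cebpg under 10 and Sesn2 under 8, each staying higher. Ddit3 was called under 2 alternatives, Chac1 under 1 and Cebpb under none. Of the list genes named, Oma1 was called under 2 alternatives, Eif2b2 under 4, Trib1 and Egr1 under 6 and Eif2b5 under 7. Dusp1 was called under 8, Fos under 9, Sesn1 and Eif2s3x under 10 and Manf under 12. Egr2 was called under 10 of the 12 alternatives in which it was tested, and Egr3 under 12 of 13. Cebpb turned sign with scaling without mtDNA-encoded genes (0.0456), without Ctrl 3 (0.08) and without cKO 2 (0.25), and over the hearts left out in turn its log2 difference ranged from -0.2187 to 0.2543. The number of the 10 genes called higher was 5 without a filter on low values, where Cebpg (adjusted p = 0.0511) and Sesn2 (0.0800) were lost. Leaving out 1 heart gave 4 (without Ctrl 2) to 9 (without cKO 1), and 1396 (without Ctrl 3) to 1977 higher and 1423 (without Ctrl 2) to 2011 lower genes in all. In the same way the number higher ranged from 5 to 8 for eIF2 control, from 2 to 7 for other bZIP factors, from 2 to 6 for endoplasmic reticulum chaperones and from 0 to 4 for immediate-early genes. Without a filter these numbers were 5 for eIF2 control, 3 for other bZIP factors and 2 for immediate-early genes, the last also 2 at a minimum mean of 1 FPKM. The cause of these shifts was not tested. With the replicate number as a block, although the numbers do not pair the hearts, the count of the 10 genes called higher was again 7. The 3 hearts a group and the depth of cKO 1 limit what can be said of genes near 1 FPKM.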
